A study of Homo sapiens with 6 samples.

Results

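The DEAD-box and DEAH-box RNA helicases were taken as the protein-coding genes of the deposited count table whose symbol is DDX or DHX followed by a number, with a suffix letter allowed. The interferon-induced members DDX58 (now RIGI), DDX60, DDX60L and DHX58 were left out. This gave 51 genes, 36 DDX and 15 DHX, of 62438 gene identifiers in the table, and 46 of them passed the filter on low counts, as did 17320 genes in all. RNA was sequenced from a human breast cancer line labelled MDA-MB-453, 48 h after transfection with siRNA at 10 nM. In 3 libraries the siRNA targeted N6AMT1 (group si-N6AMT1), and 3 others received the scrambled control (group si-CN). N6AMT1 is the methyltransferase that the study links to N6-methyladenine in DNA, and the comparison asks which mRNAs change after its knockdown. The siRNA sequence is not given in the sources used here. The study speaks of triplicate cells and the labels of replicates, without saying whether these were separate cultures. The p-values therefore measure the spread between these libraries, which may be technical.

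DEAD-box and DEAH-box proteins use ATP to open short RNA duplexes or to strip proteins from RNA, and they are named after amino acids of a conserved ATPase motif. They act at nearly every step in the life of an RNA, from ribosome assembly in the nucleolus and splicing in the nucleus to export, translation and decay in the cytoplasm. Most of them are expressed in all dividing cells, and a few are germ cell proteins. The members are described below by these roles.

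Groups were compared in CPM, the count scaled to a common library size. The values of a library rest on 12177 to 13239 counts for DDX5, the deepest member, and on 107 to 124 for DDX28, the shallowest of those tested. N6AMT1 itself had 2.92 to 3.52 CPM in si-N6AMT1 and 6.63 to 6.91 CPM in si-CN libraries, so the targeted mRNA was lower in each si-N6AMT1 library (log2 fold change -1.10, standard error 0.119, FDR = 3.65e-07 in edgeR). Markers of the labelled line were partly low. GATA3 had at most 2.63 TPM (a level per transcript length, scaled to a common total) and KRT19 at most 1.09 TPM, although MDA-MB-453 is known as a luminal line. The basal keratins KRT5 and KRT17 stood at 757 to 826 TPM and 4050 to 4200 TPM, and TP63 at 91.5 to 105 TPM, so the cells are called here only by their label. KRT8, KRT18 and EPCAM were expressed at 413 to 815 TPM. Of 4 blood markers 2 had at least 1 TPM, with a sum of 255 to 270 TPM in si-N6AMT1 and 186 to 190 TPM in si-CN libraries. PTPRC and CD3E had at most 3 counts per library, whereas CD68, also a lysosomal gene of other cells, was at 253 to 269 TPM in si-N6AMT1 against 182 to 187 TPM in si-CN libraries. The part of CD68 and of the cell type in the results below was not tested. No cell count accompanied the RNA, so less RNA per cell and fewer cells of a kind cannot be told apart.

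The helicases were abundant mRNAs in si-CN cells. Median expression of the 46 tested members was 52.7 TPM, 44 had at least 10 TPM and 10 had at least 100 TPM. DDX39B, which takes part in spliceosome assembly and mRNA export, was highest with 535 ± 6.19 TPM (SD, n = 3), followed by DDX5, a coregulator of transcription and microRNA processing, with 378 ± 2.10 TPM (SD, n = 3). These 2 ranked 227 and 339 among 20019 protein-coding genes. DDX21 at 184.8 ± 3.89 TPM and DHX15 at 175.5 ± 3.13 TPM came next (SD, n = 3 each). DDX17 with 132.8 ± 3.84 TPM and DDX1 with 132.7 ± 3.43 TPM (SD, n = 3 each) did not differ beyond their spread. At the lower end, DDX51 had 9.61 ± 0.808 TPM and DDX28, which helps to assemble the mitochondrial ribosome, had 5.52 ± 0.313 TPM (SD, n = 3 each). Summed over the 51 members, the family took 0.536% ± 0.00115 of all counts in si-CN and 0.520% ± 0.00503 in si-N6AMT1 libraries (SD, n = 3 each). Without DDX21 the shares were 0.498% ± 0.000866 and 0.494% ± 0.00478, and si-N6AMT1 replicate 1 with 0.5% then lay above all si-CN libraries.

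**Figure D1:**
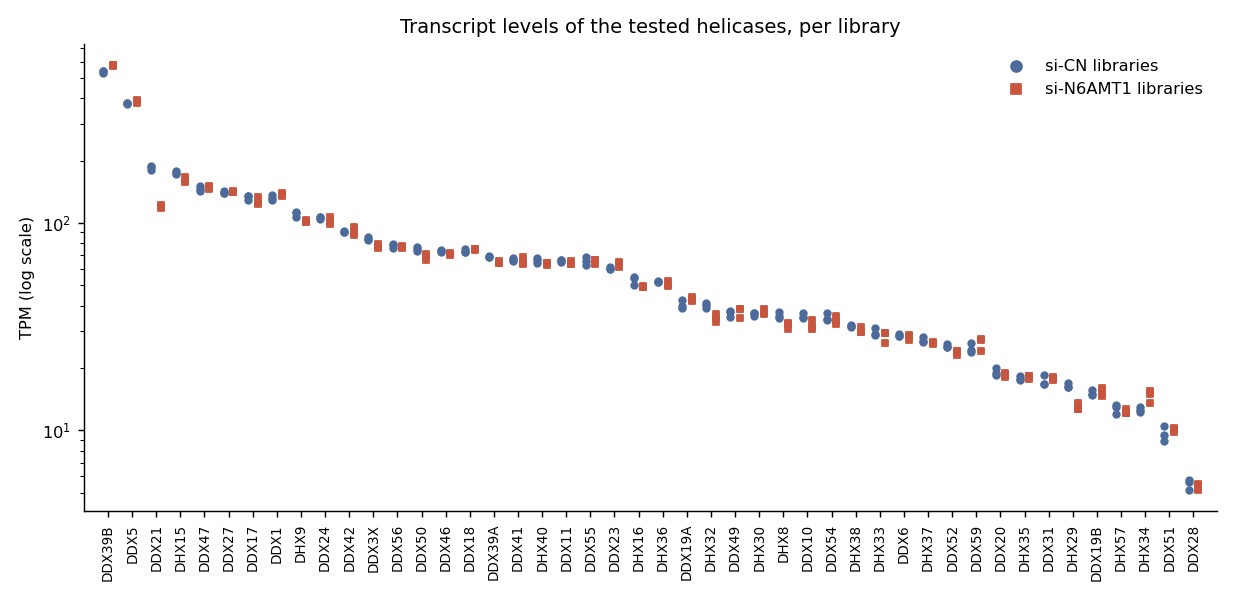
Transcript level of the 46 tested helicases in TPM (log axis), ordered by their mean in si-CN. Each point is 1 library, blue circles for si-CN and red squares for si-N6AMT1. DDX39B and DDX5 lead in both groups, and DDX21 is the member whose groups lie farthest apart, at 184.8 TPM in si-CN and 120.1 TPM in si-N6AMT1.

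The other 5 members did not pass the filter. DDX4, a germ cell helicase, had 2 counts over all 6 libraries, DDX25 of the testis had 15, DDX53 had 12 and DDX43 had 20. The Y-linked gene DDX3Y was the fifth. No fold change was computed for these 5, so no statement on the effect of si-N6AMT1 is made for them.

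Of the 46 tested members, 11 were downregulated and 2 upregulated after si-N6AMT1 (edgeR's quasi-likelihood test, FDR under 0.05), 23.9% and 4.35% of the family. Over all genes tested, 11.5% were downregulated and 9.78% upregulated, and among the 11077 genes within the range of expression of the family these shares were 16.8% and 13.4%. The median log2 fold change was -0.04 over the tested members and 0.00 over all genes tested. The changes were small. DDX21 alone passed 1.5-fold, the 10 other downregulated members had log2 fold changes of -0.34 to -0.10, and all 33 members not called lay within 0.1 of 0 on the log2 scale. Standard errors of the log2 fold change ran from 0.0204 for DDX5, the member with the most counts, to 0.106 for DDX28, the member with the fewest. Libraries of the 2 groups did not overlap for 16 lower and 6 higher members, against 18.0% and 16.8% of all genes tested. Of 15 tested DHX genes 6 were downregulated and 1 upregulated, and of 31 tested DDX genes 5 and 1. Counts within a role, given below, rest on 1 to 9 genes and were not tested against the shares over all genes.

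Calls among the smaller changes depended on the test. DESeq2, which gave an adjusted p to 11277 genes and called 10.1% of them down and 7.06% up, found 7 downregulated members (DDX21, DHX29, DHX32, DHX8, DDX3X, DHX15 and DHX9) and 1 upregulated member (DDX39B), and all 8 were also called by edgeR. These 8 were called under each of 14 alternatives. Guanine and cytosine (GC) content of the reference transcript differed between the called groups, with a median of 42.1% among downregulated members, 49.1% among members not called and 50.7% and 61.5% for the 2 upregulated ones. With a correction for this content, 9 members were downregulated and 4 upregulated, against 10.6% and 9.41% of all genes. DDX10, DDX50 and DDX52 were then no longer called, while DDX39A joined the downregulated and DDX1 and DDX5 the upregulated members.

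**Figure D2:**
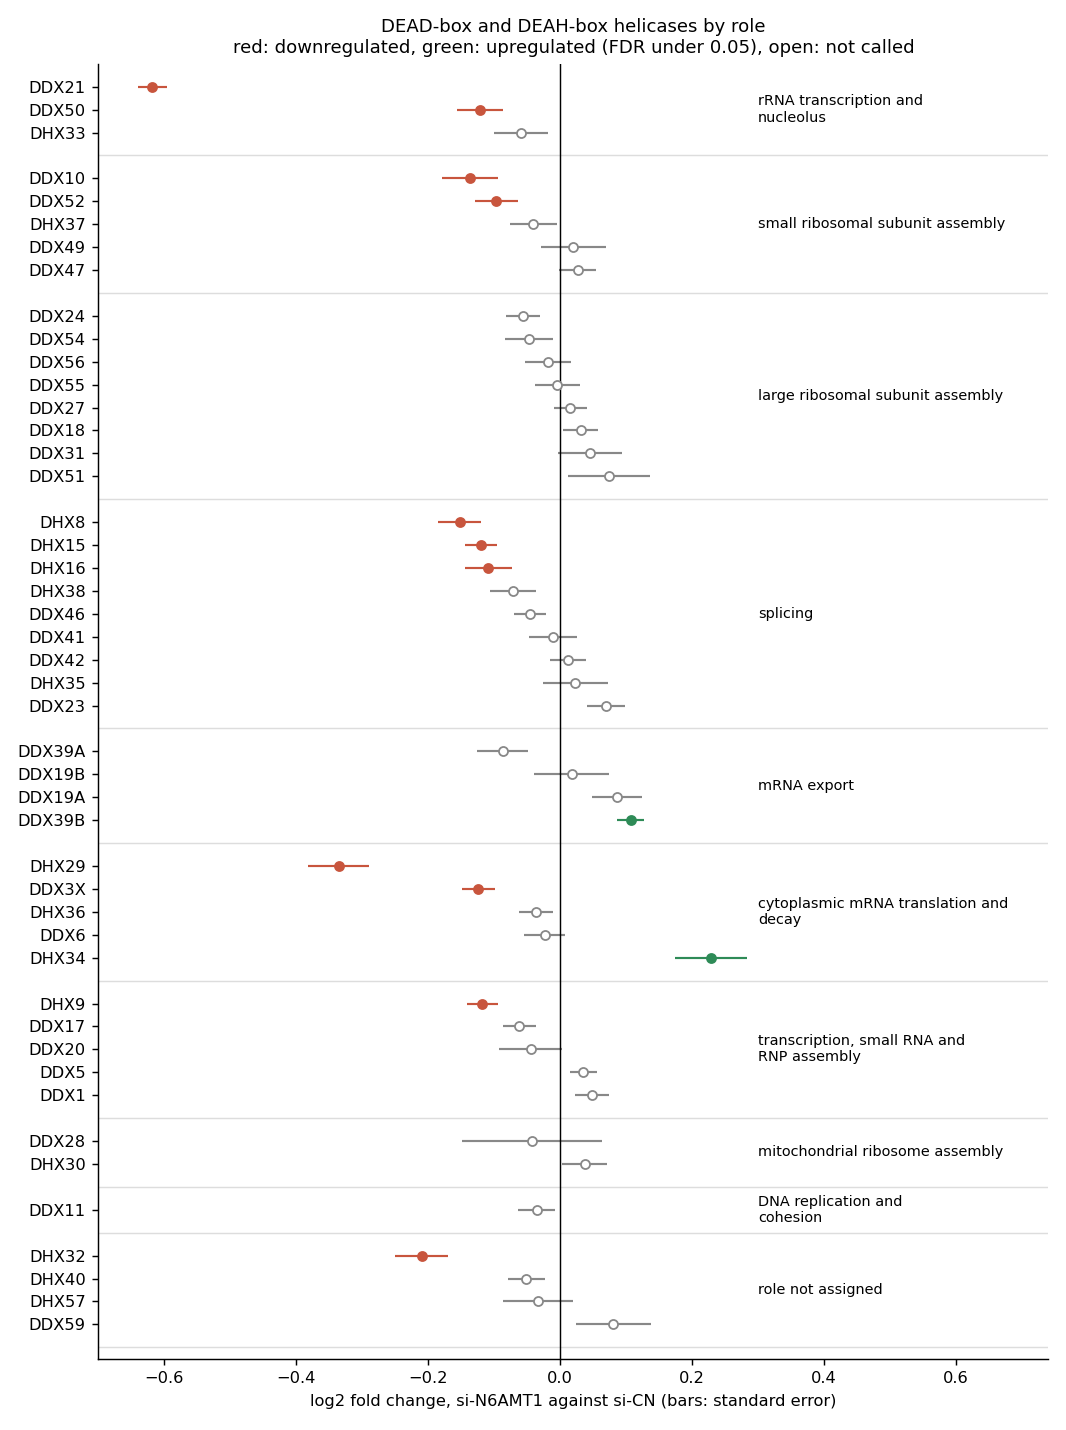
Log2 fold change of each tested helicase after si-N6AMT1, grouped by role, with the standard error as a bar. Filled red points are downregulated and filled green points upregulated at FDR under 0.05, and open points were not called. DDX21 at -0.62 lies apart from the other 45 members, which lie between -0.34 and 0.23.

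DDX21 fell the most. It encodes a nucleolar helicase that links transcription by RNA polymerases with the processing of ribosomal RNA. The gene (ENSG00000165732) lies on the plus strand of chromosome 10, chr10:70715891-70744824 in GRCh37 (hg19). DDX21 had 254.5, 251 and 250.3 CPM in si-N6AMT1 replicates 1 to 3 and 382.5, 389.5 and 388 CPM in si-CN replicates 1 to 3. All si-N6AMT1 libraries lay far below all si-CN libraries, and the spread within a group was at most 3.62 CPM (SD, n = 3). Its mRNA was 34.8% lower, which is -0.62 on the log2 scale (standard error 0.0218, FDR = 2.98e-15 in edgeR's quasi-likelihood test). By p-value it ranked 6 among all 17320 genes tested, and 4 among those that fell. Across all alternatives the log2 fold change stayed between -0.63 and -0.58.

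A pair of 7-base sequences, TTCACAT and TCACATA, was examined in the 3′ untranslated regions (UTRs) of the helicases, on the transcript strand only. They had been picked on the fold changes of all genes in these same libraries as going with lower expression, so their presence is a description and was given no test. They overlap by 6 bases, and together form a site of 8 bases. DDX21 was the 1 member that held the 8-base site. The sites of the downregulated members are printed here, in windows of 30 bases of GRCh37 read 5′ to 3′ along the transcript, with the site in capitals.
DDX21, 8-base site, chr10:70744512-70744541, plus strand: agaaatttcacTTCACATAacttaaaacat
DDX21, 7-base site, chr10:70743280-70743309, plus strand: ttttaaggaatTTCACATgtataaggtggc
DHX32, chr10:127525146-127525175, minus strand: cgaagacggatTTCACATccacaggacggt
DDX3X, chrX:41208018-41208047, plus strand: ttaaatgccgaTTCACATtactctgttcaa
Among members that were not called, 4 held a site as well, and these are shown for comparison.
DDX6, chr11:118619999-118620028, minus strand: tggaagttgttTTCACATtctttccaatat
DDX31, chr9:135468776-135468805, minus strand: atgtgtaatggTTCACATgatttggatgag
DDX31, chr9:135468907-135468936, minus strand: agagttggctgTCACATAcaaattaacagg
DDX51, chr12:132622803-132622832, minus strand: cagtggacaccTCACATAttgctggtggga
DDX55, chr12:124105093-124105122, plus strand: atcatgatgggTCACATAtagacatatgta

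Sites were thus found in 3 of 11 downregulated, 0 of 2 upregulated and 4 of 33 uncalled members, or 15.2% of the 46. Of 13145 tested protein-coding genes with a 3′ UTR of at least 50 bases, 22.5% held a site and 4.70% the 8-base site. UTR length matters for such shares. In DDX21, with a 3′ UTR of 2256 bases, the 8-base site begins at base 1955 after the stop codon, and 5.15% of genes with a UTR within 20% of this length hold that site. DHX32 has a short 3′ UTR of 350 bases, and 3.81% of genes with a UTR of like length hold either sequence. For DDX3X the share was 32.4% and for DDX6 47.8%. The members with a site but no call had log2 fold changes of -0.02 (DDX6), -0.00 (DDX55), 0.05 (DDX31) and 0.07 (DDX51). DHX29, with the next largest fall after DDX21, held neither sequence. The part of these sites in the fold changes was not tested.

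DDX50, the closest relative of DDX21 and also nucleolar, lies just upstream of it on the same strand (chr10:70661042-70706603). DDX50 had 78.6, 78.5 and 74.5 CPM in si-N6AMT1 and 87.3, 81.4 and 83.2 CPM in si-CN replicates 1 to 3. It was lower in each si-N6AMT1 library, but by far less than DDX21 (log2 fold change -0.12, standard error 0.0342, FDR = 0.0124 in edgeR), and its 3′ UTR of 217 bases held no site. The call was lost without si-N6AMT1 replicate 3 (FDR = 0.0897) and without si-CN replicate 1 (FDR = 0.0780), under DESeq2 (FDR = 0.0837) and with the correction for GC content (FDR = 0.0518). The log2 ratio of DDX21 to DDX50 counts was 1.70, 1.68 and 1.75 in si-N6AMT1 and 2.13, 2.26 and 2.22 in si-CN libraries. This ratio fell by 0.50, which follows from the values of the 2 genes above, so no p-value is given. Per transcript length, DDX21 was 2.47 ± 0.110 times as abundant as DDX50 in si-CN and 1.75 ± 0.0464 times in si-N6AMT1 libraries (SD, n = 3 each). DHX33, which acts in ribosomal RNA transcription and was listed in the same role as DDX21 and DDX50, was not called (log2 fold change -0.06, standard error 0.0411, FDR = 0.353).

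**Figure D3:**
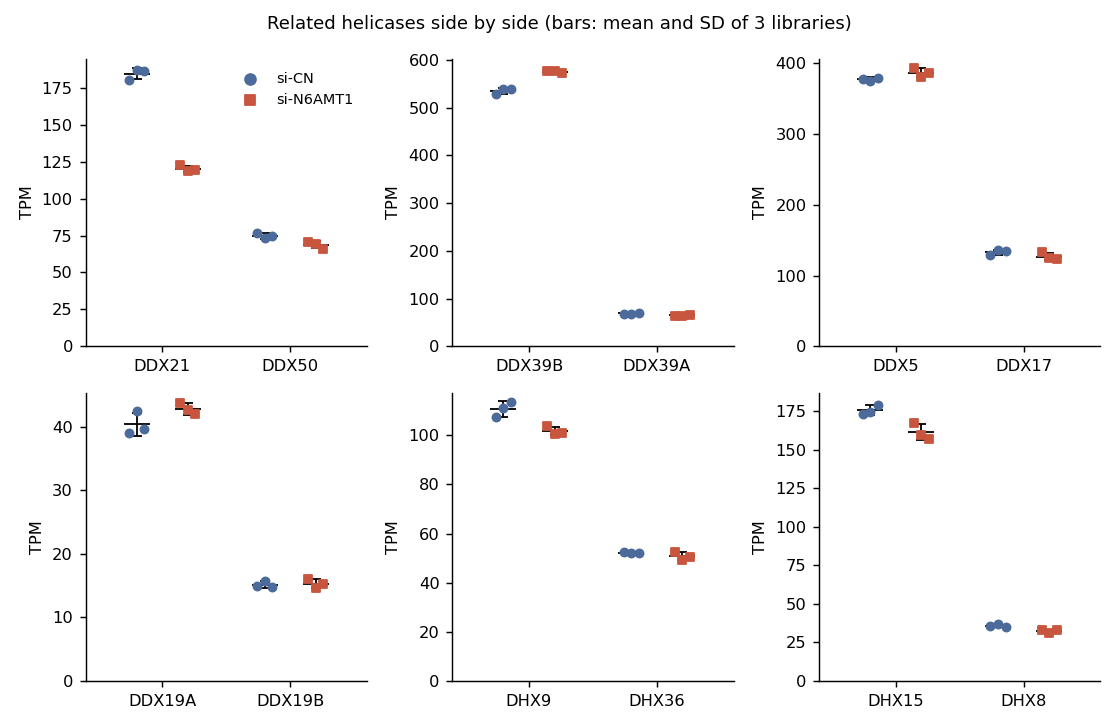
Levels of 6 pairs of related helicases in TPM, from 0, with 1 point per library (blue circles si-CN, red squares si-N6AMT1) and black bars for the mean and SD of 3 libraries. DDX21 fell from 184.8 to 120.1 TPM while DDX50 went from 74.8 to 68.7 TPM, and DDX39B is the member of its pair with the higher level and the rise.

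Of the 5 members that act on the small ribosomal subunit, DDX10 and DDX52 were downregulated and the other 3 were not called. Over all genes 11.5% were downregulated, and nothing particular to this role is read from 2 of 5. DDX10 had 45.8, 45.2 and 49.5 CPM in si-N6AMT1 and 51.5, 49.9 and 52.9 CPM in si-CN replicates 1 to 3 (log2 fold change -0.14, standard error 0.0418, FDR = 0.0211 in edgeR). DDX52 had 68.8, 66.9 and 69.7 CPM against 73.1, 72.0 and 74.4 CPM (log2 fold change -0.10, standard error 0.0328, FDR = 0.0385). The groups did not overlap for either gene, but the nearest libraries of DDX10 were only 49.5 and 49.9 CPM. Both calls were lost when si-N6AMT1 replicate 1, si-N6AMT1 replicate 2 or si-CN replicate 3 was left out, with an FDR of 0.0819, 0.116 and 0.115 for DDX10 and of 0.0678, 0.166 and 0.156 for DDX52. That of DDX52 was also lost without si-CN replicate 1 (FDR = 0.0745), with the replicate number as a block (FDR = 0.0583) and with no filter on low counts (FDR = 0.0562). DESeq2 called neither (FDR = 0.139 for DDX10 and 0.216 for DDX52), nor did the fit with the GC correction, in which the log2 fold change of DDX52 was -0.06 (FDR = 0.225) and that of DDX10 -0.11 (FDR = 0.0627). DDX10 was called under 8 and DDX52 under 5 of the 14 alternatives. DDX47, the most abundant of this role, had 120.0, 125 and 119.5 CPM in si-N6AMT1 and 118, 122 and 118 CPM in si-CN libraries, which overlapped (log2 fold change 0.03, FDR = 0.571).

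None of the 8 helicases of the large ribosomal subunit (DDX18, DDX24, DDX27, DDX31, DDX51, DDX54, DDX55 and DDX56) was called. Their log2 fold changes ran from -0.06 (DDX24) to 0.07 (DDX51), with a median of 0.01, and the libraries of the 2 groups overlapped for each of them. At an unadjusted p under 0.05 in edgeR there was 1 lower member and 0 higher, where 2846 and 2672 of all 17320 genes tested were so. At FDR under 0.05, 11.5% of all genes were downregulated and 9.78% upregulated. The difference of these 8 members from such shares was not tested. DESeq2 called 0 of the 8 as well, and without si-N6AMT1 replicate 1 edgeR called DDX24 as downregulated. DDX27, the most abundant of them per length, had 161, 165 and 165 CPM in si-N6AMT1 and 166, 160.4 and 159 CPM in si-CN libraries (log2 fold change 0.02, standard error 0.0256, FDR = 0.739). Its neighbour on the opposite strand, ZNFX1, overlaps it with 192 CPM, and whether reads of one were counted for the other is not known, since the library kit keeps the strand but the strand option of the counting is not given in the sources used here.

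In the spliceosome, each change of state is driven by a helicase. Of 9 members with this role, DHX8, DHX15 and DHX16 were downregulated and 0 upregulated, beside 11.5% and 9.78% of all genes, and the difference of so few genes from these shares was not tested. DHX15, which takes the used spliceosome apart, had 223, 216 and 212 CPM in si-N6AMT1 and 236, 233 and 239 CPM in si-CN replicates 1 to 3 (log2 fold change -0.12, standard error 0.0242, FDR = 0.000766 in edgeR). DHX8, which releases the spliced mRNA, had 81.5, 77.9 and 81.8 CPM against 90.1, 92.0 and 86.0 CPM (log2 fold change -0.15, standard error 0.0331, FDR = 0.00164). For ETV4, which overlaps DHX8 on the opposite strand with 38.5 CPM, the log2 fold change was -0.02. DHX15 and DHX8 were both lower in each si-N6AMT1 library. DHX16, which prepares the spliceosome for its first reaction, had 75.1, 75.8 and 75.3 CPM against 84.5, 76.5 and 82.9 CPM (log2 fold change -0.11, standard error 0.0355, FDR = 0.0308). For DHX16, si-CN replicate 2 was close to the si-N6AMT1 libraries, and the call was lost in 5 of the 6 fits that left out 1 library, with si-CN replicate 2 the exception (FDR = 0.0650 to 0.151), and under DESeq2 (FDR = 0.149).

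The other 6 splicing members were not called. DHX38, which acts between the reactions of splicing, had a log2 fold change of -0.07 and DDX46, which helps to place the branch site, of -0.05, and both were lower in each si-N6AMT1 library without passing the test (FDR = 0.161 and 0.195). DDX23, which helps to activate the assembled spliceosome, was the opposite, with 93.8, 90.6 and 93.9 CPM in si-N6AMT1 against 89.1, 88.8 and 87.4 CPM in si-CN libraries (log2 fold change 0.07, standard error 0.0295, FDR = 0.105). DDX41, DDX42 and DHX35 were within 0.03 of 0 on the log2 scale.

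Among the 4 export helicases, DDX39B was upregulated. Over all genes 9.78% were upregulated, and nothing particular to this role is read from 1 of 4. DDX39B had 431, 439 and 434 CPM in si-N6AMT1 and 404, 404 and 403 CPM in si-CN replicates 1 to 3. Its rise of 7.68% held in each library (log2 fold change 0.11, standard error 0.0207, FDR = 0.000541 in edgeR). The si-CN libraries were nearly identical for this gene. Its paralog DDX39A had 42.7, 43.7 and 44.3 CPM in si-N6AMT1 and 46.7, 45.7 and 46.5 CPM in si-CN libraries, lower in each si-N6AMT1 library but not called (log2 fold change -0.09, standard error 0.0385, FDR = 0.120). The log2 ratio of DDX39B to DDX39A counts was 3.32 in si-N6AMT1 and 3.12 in si-CN libraries on average, a difference of 0.19. Since DDX39B was higher and DDX39A lower in each si-N6AMT1 library, this ratio had to separate the groups, and no p-value is given. DDX39B lies in the major histocompatibility region of chromosome 6, and a readthrough gene with ATP6V1G2 that shares its exons was listed at 3.73 CPM. DDX19A and DDX19B, which release proteins from mRNA at the nuclear pore, are near-identical neighbours on chromosome 16, so counts could be split between them. DDX19A had 56.9, 56.4 and 55.3 CPM against 51.9, 55.3 and 51.6 CPM in si-CN libraries (log2 fold change 0.09, FDR = 0.115), and DDX19B had 23.4, 21.7 and 22.5 CPM against 22.3, 23.0 and 21.5 CPM (log2 fold change 0.02, FDR = 0.879). AARS1 overlaps DDX19B on the opposite strand with 323 CPM and had a log2 fold change of 0.03. Whether its reads were counted for DDX19B is not known.

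Of the 5 tested cytoplasmic helicases, 2 were downregulated and 1 upregulated, beside 11.5% and 9.78% of all genes. Nothing particular to this role is read from so few genes. DHX29, which binds the small ribosomal subunit and helps it to scan structured mRNA leaders, had 28.0, 26.9 and 26.8 CPM in si-N6AMT1 and 34.4, 33.8 and 35.0 CPM in si-CN replicates 1 to 3. Groups were well apart, and the mRNA was 20.7% lower (log2 fold change -0.34, standard error 0.0462, FDR = 9.88e-06 in edgeR). DDX3X, another helicase of translation initiation, had 164, 160.3 and 158 CPM against 175, 177 and 173.5 CPM (log2 fold change -0.12, standard error 0.0249, FDR = 0.000732). In contrast, DHX34, a factor of nonsense-mediated mRNA decay, had 28.8, 26.7 and 30.2 CPM in si-N6AMT1 against 24.1, 25.0 and 24.1 CPM in si-CN libraries. It was higher in each si-N6AMT1 library and had the largest rise of the family, 17.1% (log2 fold change 0.23, standard error 0.0543, FDR = 0.00358), although DESeq2 gave it an FDR of 0.0502. DDX6, which represses translation and promotes decapping, overlapped between groups (log2 fold change -0.02, FDR = 0.660), as did DHX36, which unwinds G-quadruplexes, with 157, 150.5 and 153 CPM against 161, 156 and 156 CPM (log2 fold change -0.04, FDR = 0.369).

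Of the 5 members in transcription, small RNA processing and assembly of RNA-protein particles, DHX9 was downregulated. Over all genes 11.5% were downregulated, and nothing particular to this role is read from 1 of 5. DHX9, which resolves RNA structures and hybrids of RNA with DNA, had 207, 205 and 204 CPM in si-N6AMT1 and 219, 223 and 227 CPM in si-CN replicates 1 to 3 (log2 fold change -0.12, standard error 0.0235, FDR = 0.000688 in edgeR). The groups did not overlap. DDX5, with 644, 635 and 641 CPM against 634, 617 and 623 CPM, was slightly higher in each si-N6AMT1 library and not called (log2 fold change 0.03, standard error 0.0204, FDR = 0.260). Its partner DDX17 had 282, 268 and 265 CPM against 278, 288 and 285 CPM, and the groups overlapped (log2 fold change -0.06, standard error 0.0254, FDR = 0.0897). Without si-N6AMT1 replicate 1, the highest of that group, DDX17 was called (log2 fold change -0.09, FDR = 0.0147). DDX1, of the tRNA ligase complex, and DDX20, of the SMN complex, had log2 fold changes of 0.05 and -0.04 and were not called.

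DHX32, for which no role was assigned, had 49.3, 47.9 and 45.6 CPM in si-N6AMT1 and 56.0, 56.2 and 53.0 CPM in si-CN replicates 1 to 3. It was lower in each si-N6AMT1 library and had the third largest fall of the family (log2 fold change -0.21, standard error 0.0401, FDR = 0.000473 in edgeR). BCCIP, which overlaps it on the opposite strand with 89.1 CPM, had a log2 fold change of 0.01. The other members without an assigned role (DDX59, DHX40 and DHX57), the mitochondrial DDX28 and DHX30 and the DNA helicase DDX11 were not called, with log2 fold changes of -0.05 to 0.08. DUS2 overlaps DDX28 on the opposite strand with 13.3 CPM, against 5.65 CPM for DDX28. DUS2 was upregulated (log2 fold change 0.23, FDR = 0.0305 in edgeR), and whether its reads were counted for DDX28 is not known. DHX30, the more abundant mitochondrial member, had 63.4, 63.6 and 66.6 CPM against 62.5, 63.3 and 62.9 CPM, only just higher in each si-N6AMT1 library (log2 fold change 0.04, FDR = 0.507). DDX11 had 112 to 114 CPM in si-N6AMT1 and 113 to 118 CPM in si-CN libraries, which overlapped (log2 fold change -0.04, FDR = 0.420), and near-identical DDX12 pseudogenes, listed at 9.23 and 7.01 CPM, may share its reads.

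**Figure D4:**
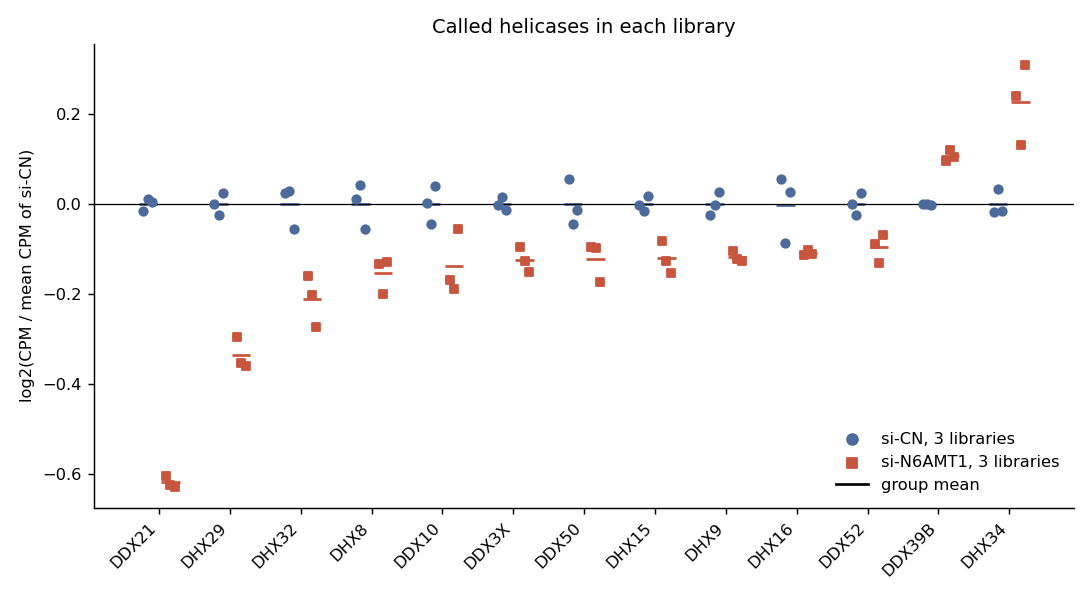
Expression of the 13 called helicases in each library, as log2 of CPM over the mean CPM of si-CN. Blue circles are si-CN and red squares si-N6AMT1 libraries, and short lines are group means. DDX21 lies lowest in all 3 si-N6AMT1 libraries (group log2 fold change -0.62), followed by DHX29 (-0.34), and for DDX10 and DHX16 the groups nearly touch.

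RNA helicases with other names were read from a list written from general knowledge. Of 18 tested genes, 7 fell and 3 rose, where 11.5% and 9.78% of all genes and 16.8% and 13.4% of those in the range of expression of the family did so. The median of their log2 fold changes was -0.05. HELZ had the smallest FDR among those that fell (log2 fold change -0.20, standard error 0.0255, FDR = 2.67e-06 in edgeR), and SNRNP200, ASCC3, DICER1, YTHDC2 and IGHMBP2 fell by 0.09 to 0.18 on the log2 scale. The call of IGHMBP2 was lost under DESeq2 (FDR = 0.218), without a filter (FDR = 0.0583) and in each fit that left out 1 library other than si-CN replicate 1 (FDR = 0.0617 to 0.105), and that of SNRNP200 without si-CN replicate 3 (FDR = 0.0666). ZNFX1, an antiviral helicase, had the smallest FDR among those that rose (log2 fold change 0.23, standard error 0.0238, FDR = 2.01e-07), with MOV10 and the translation factor EIF4A2 also upregulated. EIF4A1, the paralog of EIF4A2, was not called, nor was UPF1.

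Proteins that activate or partner these helicases formed a further list. Of its 50 tested genes, 6 fell and 5 rose, shares close to the 11.5% and 9.78% over all genes, with a median of 0.01 on the log2 scale. SARNP, which works with DDX39B in mRNA export, had the smallest FDR among those that fell (log2 fold change -0.29, standard error 0.0438, FDR = 2.95e-05 in edgeR), and LSM14B, related to the DDX6 partner LSM14A, had the smallest among those that rose (log2 fold change 0.19, standard error 0.0335, FDR = 0.000159). UTP14A, which activates DHX37, fell by 0.18 on the log2 scale while DHX37 was not called. GEMIN4, a partner of DDX20, and DGCR8, a partner of DDX5 in microRNA processing, each had a log2 fold change of 0.20 and were upregulated.

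The 4 interferon-induced helicases set aside by the rule did not move together. DDX60 fell by 0.18 on the log2 scale (FDR = 1.12e-05 in edgeR) and DDX60L rose by 0.13 (FDR = 0.00267), whereas RIGI and DHX58 were not called (log2 fold changes of 0.03 and 0.07), although RIGI was upregulated with the GC correction (0.07, FDR = 0.0384).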

How the data were processed

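Both groups had 3 RNA-seq libraries. The authors trimmed reads with Trim Galore, pseudoaligned them to hg19 transcripts with kallisto v0.46.0 and summed the estimates per gene. The values the authors deposited are estimated counts per gene in whole numbers, without normalization, and totals ran from 19739247 to 21289740 per library.

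Genes were kept by the filter of edgeR v4.0.16 (minimum count 10) in R v4.3.3, scaled by TMM and fitted with the quasi-likelihood test on all 6 libraries, without covariates. FDR is the Benjamini-Hochberg value over 17320 genes. TPM used the length of the reference transcript in GENCODE v44 on GRCh37, from which symbols, coordinates and 3′ UTRs were also taken. Standard errors come from the F statistic, as the fitted log2 difference over its square root. For the GC correction, log ratios of each library were smoothed on transcript GC content (lowess, span 0.3) and used as offsets, an alternative that, without a block, was added after results had been seen. Near-identical genes may share estimated counts. The procedure was tested on simulated counts.

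Alternatives were RLE factors, DESeq2 v1.42.0, voom in limma v3.58.1, no filter, library sizes without mitochondrial genes, a replicate block and each library left out. Members, lists, roles, pairs and the 7-base sequences were chosen with earlier results of these data known. Values per library are given for called members whose groups do not overlap (all 13), for the most abundant member of a role and for related pairs. Of the lists of other genes, the called gene with the smallest FDR in each direction is named, with the 4 interferon-induced helicases, and further genes were named after their values were seen. Library pairs of one group differed by more than sampling noise (chi-square per degree of freedom 1.37 to 1.77), and each was kept as a replicate. This excess does not tell separate cultures from technical repeats. The common coefficient of variation between libraries beyond counting noise, estimated by edgeR, was only 1.85%, and small changes can be called with so little spread.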

Additional observations from a re-analysis of the deposited data

How the results depend on the processing

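Counts of called helicases, 11 downregulated and 2 upregulated, stayed within 1.5 times under 12 of 14 alternatives. With each library left out in turn, 8 to 11 were downregulated and 2 to 2 upregulated. DESeq2 gave 7 and 1, and the GC correction alone gave 9 and 4. The median log2 fold change of the family, -0.036 in the main fit, ran from -0.039 to -0.022 under the alternatives. It was -0.022 both with the GC correction alone and without si-CN replicate 2. Same-numbered libraries showed no sign of pairing. Their deviations from the group means had correlations of -0.24, -0.09 and -0.06 over 6587 genes. For libraries of unlike number in the 2 groups, the correlations ran from -0.08 to 0.15. Deviations from a group mean cancel within the group, so these correlations are tied together and cannot settle whether same-numbered libraries were handled together. With the replicate block 10 were downregulated, since DDX52 was lost (FDR = 0.0583), and 2 upregulated, and with the replicate block and the GC correction 8 and 2. N6AMT1 kept its direction and its call in every fit that gave one, while DESeq2 gave its adjusted p as NA. Over all genes, 8.68% to 10.2% were downregulated and 7.30% to 8.55% upregulated with a library left out, 10.4% and 8.79% with the block, and 9.47% and 8.35% with block and GC correction. Among the 33 members not called, signs near 0 turned for 8. With a library left out, values ran from -0.0087 to 0.043 for DDX19B, -0.035 to 0.012 for DDX41, -0.012 to 0.035 for DDX42, -0.0054 to 0.061 for DDX49, -0.026 to 0.025 for DDX55 and -0.038 to 0.0028 for DDX56. With the GC correction they were -0.0278 for DDX49, 0.0066 for DDX55, 0.0127 for DDX6 and 0.0049 for DHX36, and with the block as well -0.0275, 0.0070, 0.0127 and 0.0049. The cause was not tested. TPM on the longest protein-coding transcript gave a median of 59.4 instead of 52.7 in si-CN. The number of helicases with a site was 7 with either choice of UTR.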
